A study of Mus musculus with 6 samples.

Results

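The collagens of the cartilage fibril were followed through the intervertebral discs (IVDs) of mice without Adgrg6 in the disc and of control mice. Type II collagen, 3 copies of the chain encoded by Col2a1, forms the bulk of this fibril. Type XI collagen, whose chains come from Col11a1, Col11a2 and Col2a1 itself, lies in its core and limits its width. Type IX collagen, a trimer of the products of Col9a1, Col9a2 and Col9a3, sits on its surface and links it to other fibrils and to the surrounding matrix. Type XXVII collagen, from Col27a1, is a further fibril-forming collagen of cartilage. In the disc these collagens are made in the nucleus pulposus, the inner annulus and the cartilage endplate, whereas the outer annulus is rich in type I collagen. The 7 genes were taken by symbol from the 43472 symbols of the count tables, and each was found once in every library and passed the filter on low counts. None of the 7 differed between mutant and control at an adjusted p under 0.05. Within every mutant library, however, Col2a1 took a larger share of the counts of the 7 than in any control, and the ratios of Col9a2 and Col9a3 to Col2a1, to Col9a1 and to Acan were lower with no overlap between 3 and 3 libraries, as they were for 8.46%, 0.786% and 1.15% of all genes. For Col9a2 over Col9a1 the groups all but met.

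RNA-seq covered 3 disc pools of the genotype Col2Cre;Adgrg6 f/f, the mutant, and 3 disc pools of littermate controls, all C57B6/J at postnatal day 20. Every pool held the discs of 2 to 3 mice, so that values of single animals are not known. The controls carry the genotype label wild type, are titled Col2Cre controls and are described in the methods as Cre (-), and whether a floxed allele was present in them is not given in the labels. Col2Cre, driven by a promoter of the gene for type II collagen, recombines in all compartments of the disc and also in periosteum and trabecular bone. The deleted gene is listed under its older symbol Gpr126 and gave 124, 108 and 94.3 CPM, the count scaled to the size of the library, in control replicates 1, 2 and 3 and 138, 124 and 106 CPM in mutant replicates 1, 2 and 3. As these counts take in all of its exons, the deleted ones cannot be read from them, and they neither check nor contradict the labels.

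Libraries held between 9061491 and 12017008 counts on genes, or 40.4% to 44.2% of all reads given to the counter. Fitted across 16152 genes with the quasi-likelihood test of edgeR, 1 gene, Prss50, had a Benjamini-Hochberg adjusted p under 0.05, or 0.00619% of the genes tested. It is none of the 7 and was named after its value was seen (adjusted p = 0.0419, log2 fold change -1.87). Chondrocyte markers summed to between 19845 and 29645 CPM in control and between 17345 and 19080 CPM in mutant libraries, and nucleus pulposus markers to 2397 to 4960 and 3130 to 5823 CPM, so that both disc cell types were represented in every library. Control replicate 1 stood apart by its skeletal muscle markers, 3697 CPM in sum against 67.8 to 152 CPM in the other 5 libraries. The fold changes of the 7 chains and the calls of the gene lists are therefore also given without it.

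Per base of transcript, Col2a1 was the most abundant of the chains in each of the 6 libraries, at 12286 to 24307 CPM per kilobase of its longest coding transcript. Col11a2 followed at 1079 to 1966 CPM per kilobase, again in all 6 libraries. Next came the type IX partners Col9a3, at 805 to 1804, and Col9a2, at 788 to 1624 CPM per kilobase, whose order changed from library to library, Col9a3 being higher in 3 of them. Col9a1 was below both in every library, at 359 to 706 CPM per kilobase. Col27a1, at 226 to 443, and Col11a1, at 197 to 381 CPM per kilobase, were lowest, and only in mutant replicate 2 was Col11a1 the higher of them. Apart from these 2 exchanges the order of levels was the same in control and mutant libraries.

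**Figure D1:**
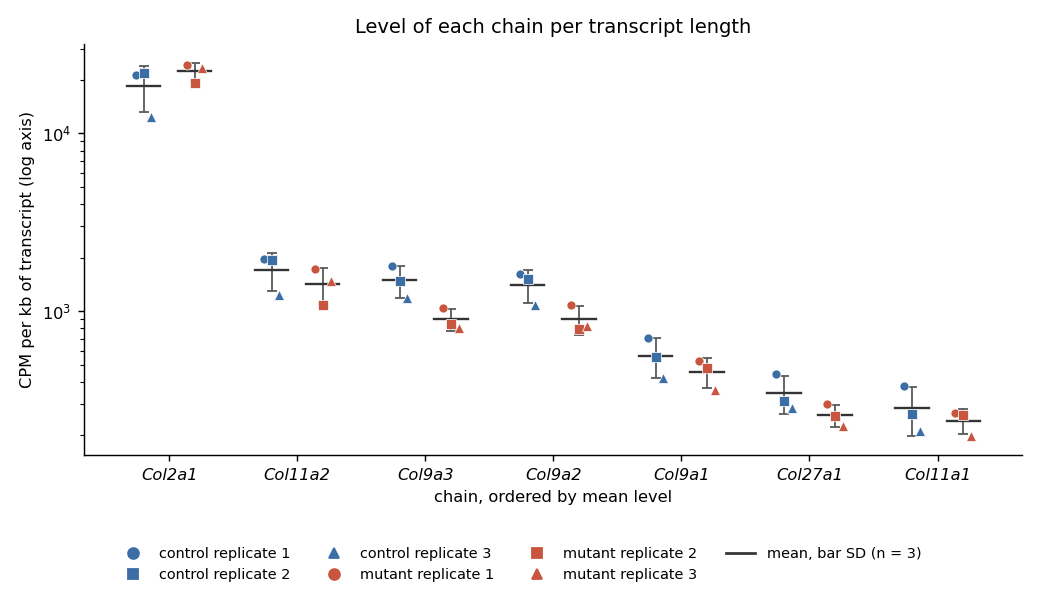
CPM per kilobase of the longest coding transcript, on a log axis, for the 7 chains ordered by mean level, with 1 point per library, the mean as a line and the SD as a bar (n = 3 per group). Col2a1 lies at 12286 to 24307 and every other chain below 1966, with Col27a1 and Col11a1 lowest in both groups.

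The chains also differ in build. The longest reading frame of the longest coding transcript in GENCODE M21 holds 1487 codons for Col2a1, 1804 for Col11a1 and 1650 for Col11a2. In each of these fibril-forming chains the longest uninterrupted run of Gly-X-Y triplets, the repeat that forms the collagen helix, spans 338 or 339 triplets. Col27a1, with 1845 codons, has a longest run of 217. The chains of type IX are shorter, with 921 codons for Col9a1, 688 for Col9a2 and 680 for Col9a3. All 3 have a longest run of 113 triplets and 5 runs of at least 10, which is the broken helix of a fibril-associated collagen.

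The genes lie apart in the genome (GRCm38, GENCODE M21). Col2a1 spans chr15:97975602-98004695 on the minus strand, and the others are on the plus strand. Col9a1 spans chr1:24177610-24252684, Col9a2 chr4:121039385-121055322 and Col9a3 chr2:180597790-180622189. Col11a1 spans chr3:114030540-114220718, Col11a2 chr17:34039437-34066685 and Col27a1 chr4:63214004-63334991. Only Col9a3 shares exon sequence with another annotated gene, 234 bases or 6.07% of its exons with Tcfl5, and the libraries do not mark strand.

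Start-site windows from RefSeq (GRCm38.p6), from 250 bases before to 50 after a start, were at hand for 5 of the 7 genes, Col9a1 with 2 starts. Those of Col9a1 and Col9a2 are shown because these partners in a single trimer are compared below. Capitals mark the GC box, GGGCGG on either strand. All 3 are read on the plus strand, at chr1:24177360-24177659, chr1:24194953-24195252 and chr4:121039316-121039615.
Col9a1, first start: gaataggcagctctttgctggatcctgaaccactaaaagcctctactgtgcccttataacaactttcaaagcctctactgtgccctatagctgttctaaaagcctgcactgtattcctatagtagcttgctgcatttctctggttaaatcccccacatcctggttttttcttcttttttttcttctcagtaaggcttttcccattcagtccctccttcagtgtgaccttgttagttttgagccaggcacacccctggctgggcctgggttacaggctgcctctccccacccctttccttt
Col9a1, second start: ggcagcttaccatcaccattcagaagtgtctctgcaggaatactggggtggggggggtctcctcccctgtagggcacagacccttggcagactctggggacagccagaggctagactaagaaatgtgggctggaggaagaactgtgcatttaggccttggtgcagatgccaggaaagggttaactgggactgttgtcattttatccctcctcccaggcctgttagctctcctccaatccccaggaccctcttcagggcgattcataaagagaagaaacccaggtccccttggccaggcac
Col9a2: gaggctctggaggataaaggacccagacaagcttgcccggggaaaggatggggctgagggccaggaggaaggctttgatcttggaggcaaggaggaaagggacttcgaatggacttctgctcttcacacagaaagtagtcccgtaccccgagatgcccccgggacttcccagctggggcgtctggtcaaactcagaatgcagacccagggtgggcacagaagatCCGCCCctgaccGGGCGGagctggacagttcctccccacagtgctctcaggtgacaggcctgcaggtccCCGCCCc

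The Col9a2 window held 3 GC boxes, at positions -26, -14 and 44 from the start site, and neither Col9a1 window held any. Col11a1, Col11a2 and Col27a1 held 2 each, against 35.7% of 32851 start-site windows with at least 1. The letters ACAATG and ACAAAG, cores read by SOX-type factors, were searched on both strands and were in none of the 6 windows of these genes, against 28.6% of all windows with either. TATAAA was found in the Col11a2 window alone, at -143, and in 13.6% of all windows. These are matches of letters and not measured sites, and gene counts do not tell which Col9a1 start was used.

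In CPM scaled by the trimmed mean of M values (TMM), 6 of the 7 chains had a lower mean in mutant than in control IVDs and Col2a1 had a higher one. None reached an adjusted p under 0.05. Col9a3 and Col9a2, both of type IX, were lower at an unadjusted p under 0.05, which is 2 of 7 against 4.32% of all genes tested. Only for Col9a3 did all mutant libraries lie below all controls, 1 of 7 against 5.96% of all genes. In bulk RNA, fewer cells that make a collagen and less of its RNA per cell cannot be told apart.

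Col2a1 gave 109120, 112180 and 62708 CPM in control replicates 1, 2 and 3 and 124060, 98509 and 119260 CPM in mutant replicates 1, 2 and 3. The groups overlapped, and control replicate 3 was well below the other 5 libraries. Its mean was 94670 ± 27722 CPM in control and 113940 ± 13580 CPM in mutant libraries (SD, n = 3). The log2 fold change of Col2a1 was 0.27 (SE 0.46, adjusted p = 0.917), and it was 0.40 when either control replicate 1 or control replicate 2 was left out and 0.05 when control replicate 3 was.

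Col9a3, the alpha-3 chain of type IX, gave 5494, 4524 and 3598 CPM in control and 3173, 2591 and 2453 CPM in mutant replicates 1, 2 and 3. The highest mutant library was thus below the lowest control. Means were 4539 ± 948 and 2739 ± 382 CPM (SD, n = 3), and the log2 fold change was -0.73 (SE 0.27, unadjusted p = 0.0231, adjusted p = 0.676). Without control replicate 1 the log2 fold change of Col9a3 was -0.55 and the unadjusted p 0.0827. The unadjusted p was also over the threshold without mutant replicate 2, at 0.0629, and without mutant replicate 3, at 0.0787. Tcfl5, which shares exon bases with it, had between 233 and 574 counts per library, whereas Col9a3 averaged 46038 counts in control and 27571 in mutant libraries.

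Col9a2, the alpha-2 chain, gave 4747, 4425 and 3145 CPM in control and 3174, 2305 and 2414 CPM in mutant replicates 1, 2 and 3. The groups met at mutant replicate 1 and control replicate 3, while the other mutant libraries lay below all controls. The log2 fold change of Col9a2 was -0.64 (SE 0.28, unadjusted p = 0.0426, adjusted p = 0.691). It was -0.50 without control replicate 1, with an unadjusted p of 0.121. The unadjusted p was 0.0847, 0.123 and 0.117 without control replicate 2, mutant replicate 2 and mutant replicate 3.

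Col9a1, the alpha-1 chain, which carries the part of type IX that projects from the fibril, gave 2708, 2120 and 1621 CPM in control and 2021, 1841 and 1378 CPM in mutant replicates 1, 2 and 3. Its groups overlapped broadly. The log2 fold change of Col9a1 was -0.30 (SE 0.27, adjusted p = 0.825), and -0.08 without control replicate 1. With mutant replicate 3 left out it was -0.15, and with control replicate 3 left out -0.46.

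Of the type XI chains, Col11a1 gave 2923, 2020 and 1618 CPM in control and 2043, 2005 and 1513 CPM in mutant replicates 1, 2 and 3. Control replicate 1 was above all others. The log2 fold change of Col11a1 was -0.24 (SE 0.28, adjusted p = 0.859) and turned to 0.05 without that library. It was -0.11 without mutant replicate 3 and -0.40 without control replicate 3.

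Col11a2 gave 11888, 11737 and 7457 CPM in control and 10434, 6526 and 8885 CPM in mutant replicates 1, 2 and 3. The ranges overlapped, and the lowest library of each group lay apart from the other two. The log2 fold change of Col11a2 was -0.27 (SE 0.33, adjusted p = 0.871), and -0.45 when control replicate 3 was left out, -0.17 for control replicate 2, -0.14 for control replicate 1 and -0.09 for mutant replicate 2.

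Col27a1 gave 3370, 2380 and 2171 CPM in control and 2282, 1951 and 1718 CPM in mutant replicates 1, 2 and 3. Only mutant replicate 1 reached into the control range. The log2 fold change of Col27a1 was -0.41 (SE 0.26, adjusted p = 0.776), and -0.18 without control replicate 1. When CPM was taken on library totals in place of TMM, a choice made after seeing the data, Col27a1 and Col9a2 joined Col9a3 in having all mutant below all control libraries, 3 of 7 against 8.58% of all genes.

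**Figure D2:**
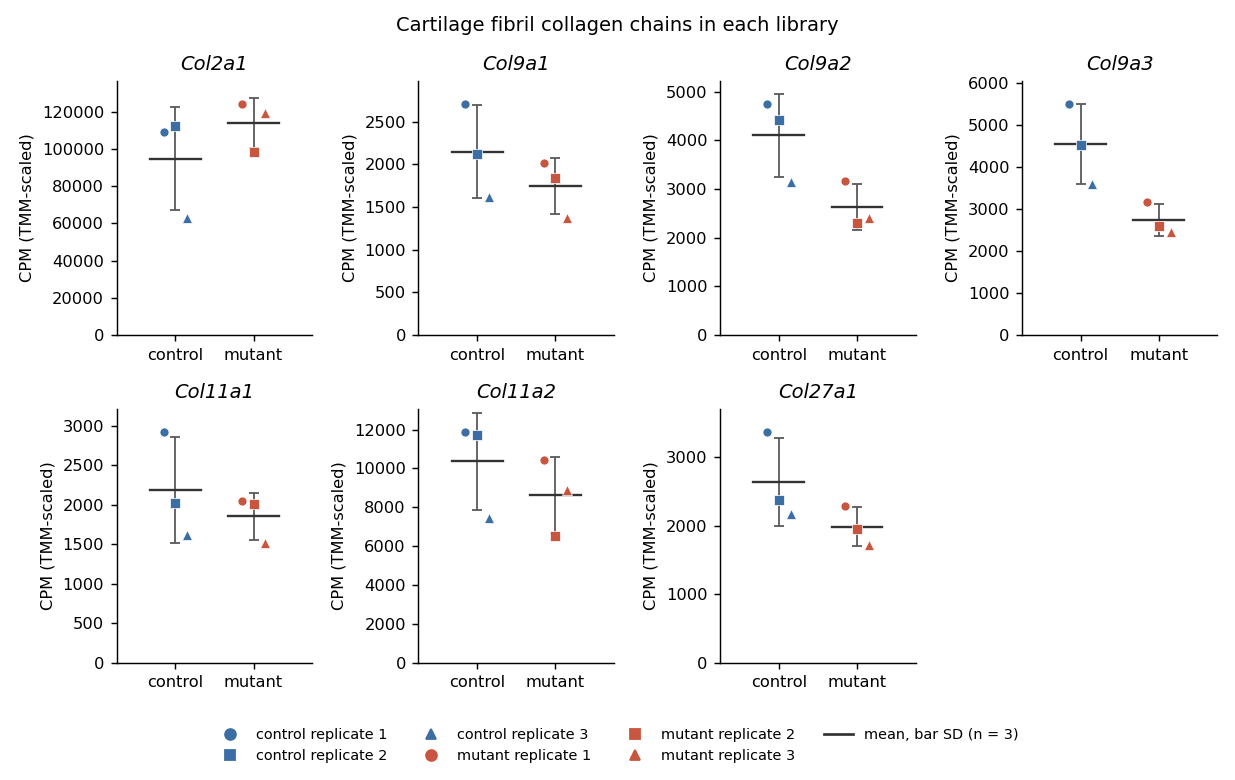
TMM-scaled CPM of each chain in each library, on axes that start at 0, with points for the 3 control and 3 mutant libraries, the mean as a line and the SD as a bar. Col9a3 is the chain whose groups do not overlap (lowest control 3598 and highest mutant 3173 CPM), and Col2a1 is the chain with the higher mutant mean.

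The summed prehypertrophic and hypertrophic chondrocyte markers were lower in every mutant library than in any control. Their 6 genes (Col10a1, Ihh, Pth1r, Panx3, Alpl and Mef2c) summed to 2811, 2029 and 1560 CPM in control and 1506, 1266 and 1241 CPM in mutant replicates 1, 2 and 3, with 4 of 6 lower at an unadjusted p under 0.05, against 4.32% of all genes. Leaving out control replicate 1, the highest of these sums, could not make the groups overlap. Without it 2 of the 6 genes were lower, Ihh and Panx3, against 8.89% of all genes in that fit. The 9 chondrocyte markers, 3 of which were lower at that p and 2 without control replicate 1, also did not overlap in sum, with 19845 CPM in the lowest control and 19080 CPM in the highest mutant library. Outer annulus and tendon markers lay the other way, at 162 to 258 CPM in control and 287 to 400 CPM in mutant libraries, 2 of 6 being higher at that p, against 2.89% of all genes, and 2 without control replicate 1. Neutrophil markers summed to 14.0 to 48.9 CPM in control and 31.7 to 142 CPM in mutant libraries, with 2 of 8 higher, and red blood cell markers to 39.6 to 342 and 213 to 449 CPM, with 1 of 7 higher. Nerve markers summed to 216 to 1643 CPM in control and 901 to 3562 CPM in mutant libraries, with 1 of 5 higher, and osteoblast markers to 356 to 578 and 454 to 724 CPM, with 2 of 6 higher and 1 lower. In these 4 lists the sums overlapped between the groups when all 6 libraries were taken. Macrophage markers, with 1 of 5 higher, and endothelial markers, with none of 4 called, lay at 48.2 to 66.4 and 78.7 to 171 CPM in control and 59.9 to 116 and 142 to 154 CPM in mutant libraries. With control replicate 1 left out, 6 of 7 red blood cell and 3 of 4 endothelial markers were higher at an unadjusted p under 0.05, against 5.25% of all genes in that fit. The sums of the remaining controls, 39.6 and 99.98 CPM for red blood cells and 78.7 and 98.1 CPM for endothelium, then lay below all mutant libraries. So did those of skeletal muscle markers, at 99.9 and 67.8 CPM against 140 to 152 CPM in mutant libraries. In the same fit 2 of 8 neutrophil, 1 of 5 macrophage, 1 of 5 nerve, 3 of 6 osteoblast and 3 of 7 skeletal muscle markers were higher, where all 7 muscle markers were lower over the 6 libraries, and 1 osteoblast marker was lower, and no nucleus pulposus marker was called. None of these lists held a gene at 0 in all libraries. The part of cell composition in the collagen values was not tested. Without control replicate 1, the library with muscle RNA, the log2 fold changes of Col9a3 and Col9a2 were -0.55 and -0.50.

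Because Col2a1 took 7.16% to 11.6% of all gene counts, the chains were next compared within each library, where no scaling between libraries is needed. Col2a1 made up 77.8%, 80.5% and 76.2% of the counts of the 7 chains in control replicates 1, 2 and 3. In mutant replicates 1, 2 and 3 its share was 84.3%, 85.1% and 86.7%, above every control. The remaining share was thus smaller in all 3 mutant libraries, in means 3.84% against 2.06% for Col9a3 and 3.46% against 1.97% for Col9a2. The means were 8.65% against 6.39% for Col11a2, 2.25% against 1.495% for Col27a1, 1.83% against 1.41% for Col11a1 and 1.81% against 1.32% for Col9a1.

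**Figure D3:**
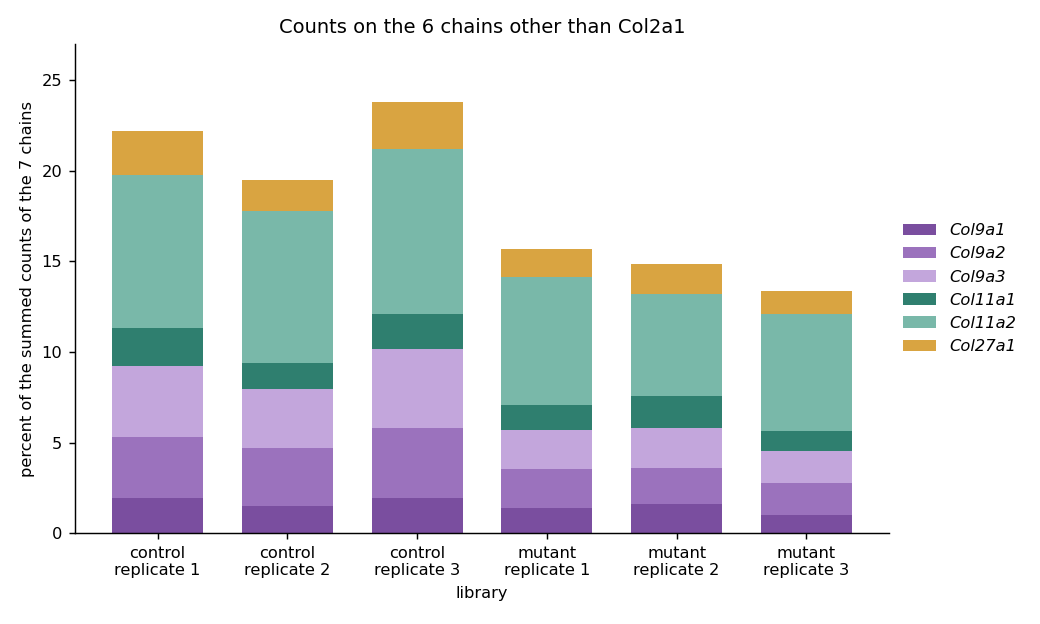
Counts on the 6 chains other than Col2a1 as percent of the summed counts of the 7 chains, stacked in 1 bar per library on an axis from 0. The 3 mutant bars are lower than all 3 control bars, the rest up to 100% being Col2a1, at 76.2% to 80.5% in control and 84.3% to 86.7% in mutant libraries.

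For every 100 counts of Col2a1, Col9a3 had 5.03, 4.03 and 5.74 counts in control and 2.56, 2.63 and 2.06 counts in mutant replicates 1, 2 and 3. The log2 ratio was 1.02 lower in mutant IVDs, a fold of 0.492. Col9a2 had 4.35, 3.94 and 5.01 counts per 100 of Col2a1 in control and 2.56, 2.34 and 2.02 in mutant replicates, and its log2 ratio differed by -0.94. For both, the highest mutant library was below the lowest control.

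Col11a2 had 10.9, 10.5 and 11.9 counts per 100 of Col2a1 in control and 8.41, 6.62 and 7.45 in mutant replicates, a log2 difference of -0.57 with no overlap. For Col27a1 the values were 3.09, 2.12 and 3.46 in control and 1.84, 1.98 and 1.44 in mutant replicates, a log2 difference of -0.70. The gap for Col27a1 was narrow, between control replicate 2 and mutant replicate 2. For Col9a1 these libraries nearly met, with 2.48, 1.89 and 2.59 in control and 1.63, 1.87 and 1.16 in mutant replicates, a log2 difference of -0.60. For Col11a1 they crossed, with 2.68, 1.80 and 2.58 in control and 1.65, 2.04 and 1.27 in mutant replicates, a log2 difference of -0.52. With mutant replicate 3 left out the differences for Col9a1 and Col11a1 were -0.40 and -0.34.

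Summed by type, type IX had 11.9, 9.87 and 13.3 counts per 100 of Col2a1 in control and 6.75, 6.84 and 5.24 in mutant replicates, a log2 difference of -0.90. Type XI, as Col11a1 with Col11a2, had 13.6, 12.3 and 14.5 in control and 10.1, 8.66 and 8.72 in mutant replicates, a log2 difference of -0.56. In a two-sided exact permutation test, p was 0.1 for 7 of these 8 ratios and 0.2 for Col11a1, or 0.114 and 0.2 after Benjamini-Hochberg adjustment over the 8. With 3 libraries against 3 this test cannot give a p under 0.1, so none could pass 0.05.

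The denominator weighs on these ratios. Over all other genes tested, the median difference of the log2 ratio to Col2a1 was -0.32, and 8.46% of genes had all mutant below all control libraries, against 5 of the 6 chains. Control replicate 3, the library with the lowest Col2a1, had the highest ratio for all chains but Col11a1. Without it the log2 difference was -0.91 for Col9a3, -0.85 for Col9a2, -0.80 for type IX and -0.50 for type XI. Without control replicate 1 these differences were -1.003, -0.95, -0.88 and -0.55. In an edgeR fit with the Col2a1 count as the library size, chosen after seeing the data, Col9a3 had a log2 fold change of -1.03 (SE 0.37, adjusted p = 0.308) and Col9a2 one of -0.94 (SE 0.36, adjusted p = 0.381), and the adjusted p of the other 4 chains lay between 0.603 and 0.674.

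**Figure D4:**
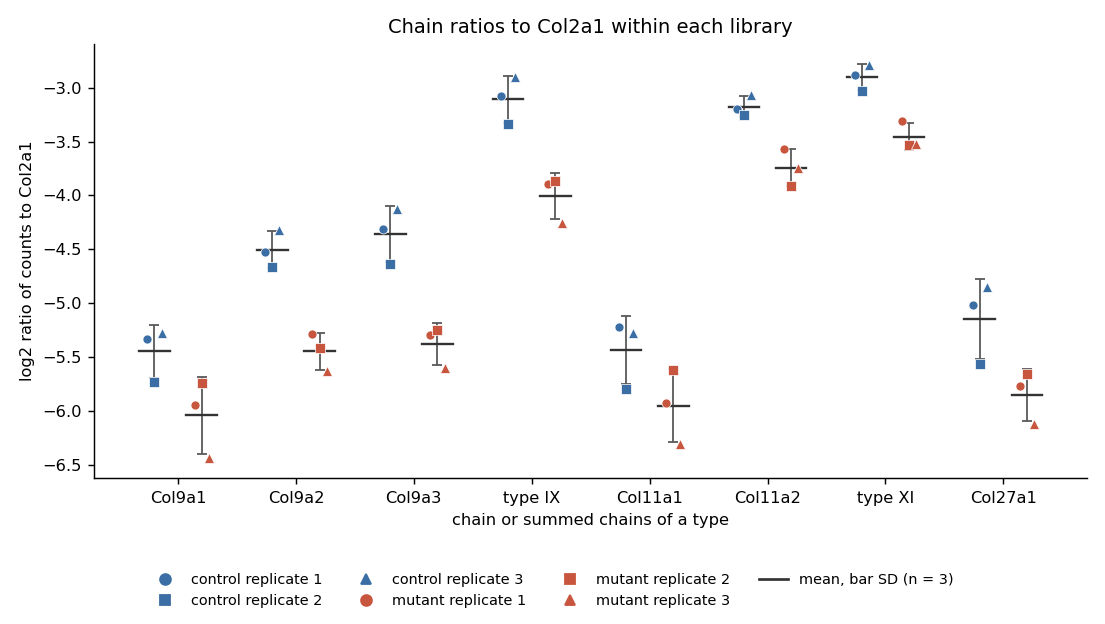
Log2 ratio of the counts of each chain, and of the summed type IX and type XI chains, to the counts of Col2a1 within each of the 6 libraries, with the mean as a line and the SD as a bar (n = 3 per group). Mutant points lie below control points for all but Col11a1, most widely for Col9a2 (difference -0.94) and Col9a3 (-1.02).

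Acan, which encodes aggrecan, the main proteoglycan of cartilage, served as another denominator. It gave 5462, 5359 and 4654 CPM in control and 5054, 3565 and 4007 CPM in mutant replicates 1, 2 and 3. The log2 fold change of Acan itself was -0.29 (SE 0.27, adjusted p = 0.825). Those of Col9a1, Col11a1 and Col11a2 were close to it, at -0.30, -0.24 and -0.27. Against Acan, the log2 ratios of Col9a3 and Col9a2 were lower in all mutant than in all control libraries, by -0.41 and -0.33, as for 1.15% of all genes. Against Acan, Col2a1 was higher in all mutant libraries, by 0.61. The share of all genes that were higher against Acan in this way was not computed. The other 4 chains overlapped between the groups, with differences of 0.02 for Col9a1, 0.10 for Col11a1, 0.04 for Col11a2 and -0.09 for Col27a1. The exact permutation p was 0.1 for the ratios that did not overlap and 0.5 to 0.9 for the others. The lower ratios of Col9a1, Col11a1 and Col11a2 to Col2a1 were therefore not seen against Acan, and those of Col9a2 and Col9a3 were. Summed type IX, at -0.90 against Col2a1, was at -0.28 against Acan with overlapping groups (exact permutation p = 0.2), and type XI was at 0.06.

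Type IX collagen takes 1 chain from each of its genes, so its chains were compared with each other. For every 100 counts of Col9a1 there were 203, 213 and 222 counts of Col9a3 in control and 157, 141 and 178 in mutant replicates 1, 2 and 3, a log2 difference of -0.43 with no overlap. For Col9a2 there were 175.3, 209 and 194 in control and 157, 125 and 175.2 in mutant replicates, a log2 difference of -0.35 in which control replicate 1 and mutant replicate 3 nearly met. That difference was -0.21 when mutant replicate 2 was left out. Only 0.786% of all genes had a ratio to Col9a1 that was lower in all mutant libraries. Per length of transcript, Col9a3 stood at 2.55, 2.69 and 2.79 times Col9a1 in control and 1.98, 1.77 and 2.24 times in mutant replicates.

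Col9a3 and Col9a2 kept closer to each other. Their ratio per length was 0.960 to 1.11 over the 6 libraries, and the log2 ratio differed by -0.08 between the groups, which overlapped. The log2 ratio of Col11a2 to Col11a1 differed by -0.05, with a wide spread of 407 to 581 counts per 100 of Col11a1 in control and 325 to 587 in mutant libraries. Type IX over type XI was lower in all mutant libraries, at 87.4, 80.5 and 92.2 counts per 100 in control and 67.1, 78.97 and 60.1 in mutant replicates 1, 2 and 3, a log2 difference of -0.34. The exact two-sided permutation p for the ratios that did not overlap was again 0.1, the smallest the design allows, and 0.167 after adjustment over the 5 ratios. It was 0.2 for Col9a3 over Col9a2 and 1 for Col11a2 over Col11a1.

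**Figure D5:**
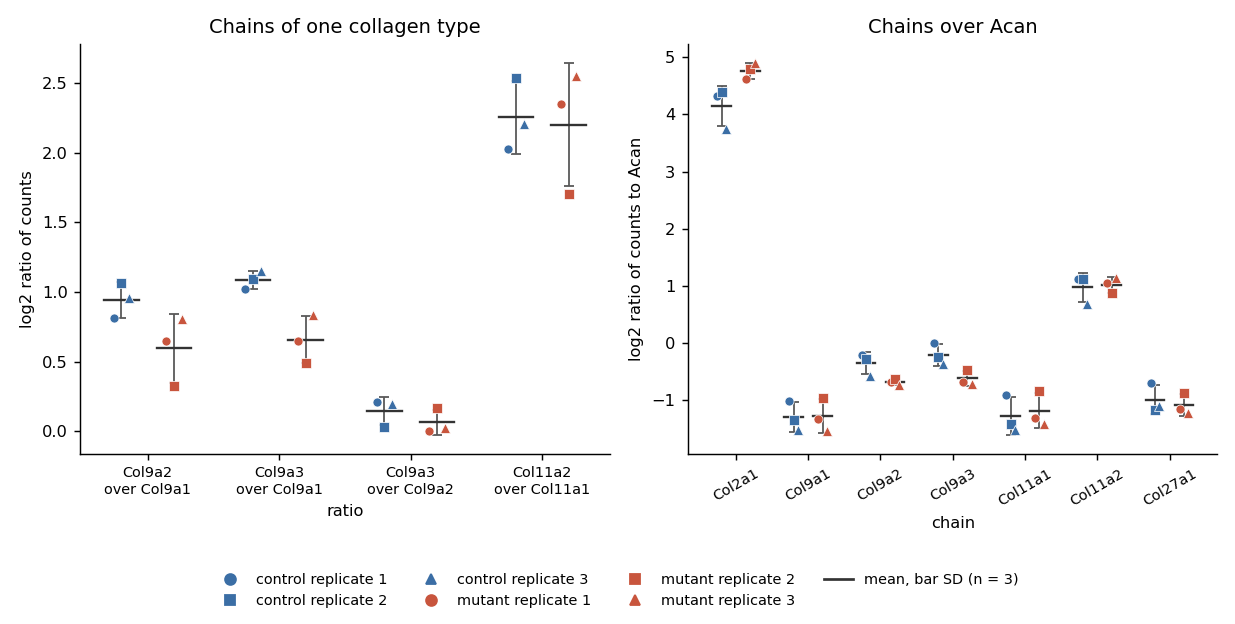
Log2 ratios of counts within each library, between chains of the same collagen type (left) and of each chain to Acan (right), with the mean as a line and the SD as a bar (n = 3 per group). Col9a2 and Col9a3 are lower in mutant libraries against both Col9a1 and Acan, while Col9a3 over Col9a2 and Col11a2 over Col11a1 overlap.

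Across the 6 libraries, the log2 CPM of Col9a2 and Col9a3 had a Pearson correlation of 0.978, and that of Col9a1 and Col11a1 one of 0.969. Col2a1 correlated with the other chains at -0.06 to 0.56, the highest being Col11a2. These are descriptions over 6 points that hold both groups and share 1 scaling. Among 3221 genes with a mean of at least 50 CPM, the patterns most like the mean of the type IX chains were those of Usp4, Fhl1, Matn4, Mtus1 and Ncmap (correlations of 0.971 to 0.978). Among those most like Col2a1 were Dpp9, Map1a, Csnk1d and Arhgef40 (0.975 to 0.983), all with their lowest level in control replicate 3. Of these genes, only Matn4 belongs to the lists of fibril-associated genes.

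Around the fibril, 70 genes were listed by role, of which 69 were tested. At an unadjusted p under 0.05, 11 were higher and 4 lower, and none passed after adjustment, while over all 16152 genes 467 were higher and 697 lower. The median log2 fold change of the 69 was 0.05, against -0.01 over all genes and -0.30 over the 7 chains. That of the 7 chains was -0.14 without control replicate 1. Of 6 genes for transcription, which include Sox9, Sox5 and Sox6, factors that drive Col2a1 in chondrocytes, none was called, with log2 fold changes of 0.11, -0.41 and -0.59 for these 3. Of 18 genes for folding, modification and export of procollagen, none was called either. Nor was any of 7 collagen receptors or of the 6 collagen-degrading genes tested. Serpinh1, the collagen chaperone, was at -0.04, and at 0.12 without control replicate 1. P4ha1, a subunit of collagen prolyl hydroxylase, and Itga11, a collagen-binding integrin, named after their values were seen, were higher at that p once control replicate 1 was left out.

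Among 12 genes of the fibril surface, 2 were lower and 1 higher, against 4.32% and 2.89% of all genes, and none was called without control replicate 1. Matrilins bind collagen fibrils and, with type IX collagen, link them to the matrix. Matn3 was lower, with 689, 475 and 412 CPM in control and 408, 286 and 222 CPM in mutant replicates 1, 2 and 3 and no overlap (log2 fold change -0.78, SE 0.28, unadjusted p = 0.0178, adjusted p = 0.676). Matn4 was lower at -0.59 (unadjusted p = 0.0403) and Matn2 higher at 0.50 (unadjusted p = 0.0355). With control replicate 1 left out, the log2 fold changes of Matn3, Matn4 and Matn2 were -0.52, -0.42 and 0.40, with unadjusted p of 0.0769, 0.139 and 0.0946.

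The 7 other fibril-forming collagen genes had a median log2 fold change of 0.86, and 5 of them were higher at an unadjusted p under 0.05, against 2.89% of all genes. Without control replicate 1 the count was also 5, though not of all the same genes, against 5.25% of all genes in that fit. The median was then 0.91. Col3a1 gave 2043, 1954 and 1568 CPM in control and 2753, 4389 and 4633 CPM in mutant replicates 1, 2 and 3 (log2 fold change 1.08, SE 0.28, unadjusted p = 0.00335, adjusted p = 0.627). Col5a2 and Col5a1, chains of type V collagen, which is to the type I fibril what type XI is to the cartilage fibril, were at 0.87 and 0.80. Col1a1 was at 1.05, and control replicate 3, where Col2a1 was lowest, also held the least Col1a1, 3879 CPM against 7926 to 20231 CPM elsewhere.

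Of 13 genes for removal of propeptides and for crosslinking, 5 were higher and 2 lower, against 2.89% and 4.32% of all genes, and 6 and 1 without control replicate 1. Pcolce, an enhancer of C-propeptide removal, gave 286 ± 26.5 CPM in control and 498 ± 94.1 CPM in mutant libraries (SD, n = 3), without overlap (log2 fold change 0.80, unadjusted p = 0.00289, adjusted p = 0.626). The crosslinking enzymes Loxl1 and Lox were at 0.99 and 0.75, both with overlap. Adamts14, which removes N-propeptides, was at -0.54, with all mutant libraries below all controls.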

How the data were processed

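Poly(A) RNA of pooled IVDs was sequenced in paired ends with a kit that does not mark strand. The authors deposited raw read counts per gene symbol and library, without normalization. The submitters' processing notes name STAR 2.5.3a, HTSeq, DESeq2 and the builds GRCm38 and mm10, while the methods of the study name HISAT2, and the strand setting of the count is not given in the sources used here. A deposited table of the authors' own comparison (normalized counts, fold changes and p-values) was not used. Summary lines of the count tables stayed out of library sizes. Among them were 39.4% to 43.3% of reads assigned to no counted feature and 12.0% to 18.9% not aligned.

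Mutant was tested against control in R 4.3.3 by edgeR 4.0.16 (TMM, filterByExpr with a count minimum of 10, quasi-likelihood test, model with group only), with Benjamini-Hochberg adjustment over 16152 genes and a threshold of 0.05. Ballgown, the test of the study's methods, could not be run on gene counts. An SE was taken from a fold change and its F statistic (the log2 value over the root of F). Log2 ratios within a library were compared with exact two-sided permutation tests (SciPy 1.17.1). Nothing states that pools share no litter, so p-values measure the spread between these pools. Depth gives precision for counting error only, as reads carry no molecular identifiers. The edgeR test was run on simulated counts, and the permutation test was checked on short sets of numbers with known answers. Named genes are the 7 chains, Gpr126, up to 4 genes per list with the smallest unadjusted p under 0.05, and the 5 genes most like the type IX mean and like Col2a1. Exceptions are Prss50, P4ha1, Itga11, Sox9, Sox5, Sox6, Serpinh1, Acan, Tcfl5 and the hypertrophic markers, which were named with their values seen. A gene that the rule selects is not reported here. The 7 genes, the lists and the tests were chosen with earlier results of these data known.

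Alternatives were RLE size factors, Col2a1 left out of the fit, no filter, DESeq2 1.42.0, limma-voom (limma 3.58.1), the replicate number as a block, other denominators and each library left out in turn. The list counts without control replicate 1 were added after seeing the data.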

Additional observations from a re-analysis of the deposited data

How the results depend on the processing

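Under 83 alternative fits of the 7 fold changes, 82 kept their direction and their side of the adjusted threshold. The exception was Col11a1, at 0.047 without control replicate 1 and at -0.40 to 0.047 over the libraries left out. The smallest adjusted p of Col9a3 was that of DESeq2, 0.0635, and the others ranged from 0.434 to 0.999. The count of chains lower at an unadjusted p under 0.05, 2 in edgeR, was 3 by DESeq2, where Col27a1 had an unadjusted p of 0.0481, 1 without the filter and 0 to 2 with a library left out, being 0 when control replicate 1 or either of mutant replicates 2 and 3 was left out and 1 without control replicate 2. The count of chains whose groups do not overlap was 3 on library totals, an alternative added after seeing the data, against 1. The count of genes at an adjusted p under 0.05, 1 in edgeR, was 245 without the filter, 58 by DESeq2, 0 by limma-voom and 0 to 31 with a library left out (31 without control replicate 1). The cause was not tested.

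For pairing, the mean of its group was first taken from the log2 CPM of each gene. These deviations correlated at -0.17 to 0.13 between same-numbered libraries of the groups and at -0.26 to 0.18 between differently numbered ones. Replicate numbers thus did not pair the libraries. With the replicate block in edgeR, 0 genes passed, and the log2 fold changes of Col9a3 and Col9a2 were -0.72 and -0.63. For the ratios, the paired form allows no p under 0.25.

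Of 111 alternatives for the ratios, 101 kept their direction. Against Acan, the differences reversed for Col9a1 (0.019), Col11a1 (0.10), Col11a2 (0.045) and type XI (0.059), and type IX was at -0.28, with overlap. Against the mean log2 count of the other 5 chains besides Col2a1 they reversed for Col9a1 (0.16), Col11a1 (0.25), Col11a2 (0.19) and Col27a1 (0.026). Col9a2 and Col9a3 were there at -0.26 and -0.36. Col11a2 over Col11a1 ranged from -0.23 to 0.20 with a library left out, and reversed to 0.09 without control replicate 2 and 0.20 without mutant replicate 2. The lowest mean of the 7 chains was 17763 counts per library. With 3 pools in a group, the exact permutation test cannot give a p under 0.1. Whether depth or the number of pools limits the results more was not tested.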
